A study of Mus musculus with 40 samples.

Results

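The 4 mouse genes described here make, load and break down GABA, the main inhibitory transmitter of the forebrain. They were chosen by name, as the rows of the count files whose Ensembl identifier carries the symbol Gad1, Gad2, Slc32a1 or Abat, and they are 4 of the 41388 genes in the files. All 4 were found and all 4 passed the filter on low counts in each fit. RNA was measured in 40 libraries from mice of 2 lines at 21 days after birth, with 5 pools of 2 to 3 forebrains of both sexes per line and 4 fractions per pool. In both lines an EGFP-tagged ribosomal protein L10a is expressed from the Rosa26 locus after Cre recombination. In RBP4-TRAP mice, Cre comes from the transgene Tg(RBP4-cre)KL100Gsat/Mmcd and marks layer 5 pyramidal neurons. In VGAT-TRAP mice, Cre comes from the allele Slc32a1tm2(cre)Lowl and marks GABAergic neurons, so that the driver of that line sits at the locus of a member, and all samples of the line carry it. The fractions were the whole-cell homogenate (WCH), ribosome-bound RNA captured from the homogenate through the tag (TRAP), the synaptoneurosome fraction of pinched-off processes (SNF), and ribosome-bound RNA captured from that fraction (SynapTRAP, ST). The labels give the tissue as cortex. The methods describe a rapid dissection of the forebrain, and the study states that some dorsal striatum, whose projection neurons are GABAergic, was probably taken along.

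Gad1 and Gad2 encode the glutamate decarboxylases GAD67 and GAD65, which turn glutamate into GABA with pyridoxal phosphate as cofactor. GAD67 is found throughout the cell and makes much of its basal GABA, while GAD65 is anchored to synaptic vesicles at the terminal. Slc32a1 encodes VGAT, the transporter that loads GABA and glycine into synaptic vesicles. Abat encodes GABA transaminase, the mitochondrial enzyme that begins GABA breakdown and is also present in astrocytes. Forebrain GABAergic neurons express the first 3 together, while layer 5 pyramidal neurons use glutamate and the vesicular transporter made from Slc17a7.

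Gad1 (ENSMUSG00000070880) spans chr2:70553072-70602014 on the plus strand of GRCm38, with 21 exon blocks of 7639 bases in all. Gad2 (ENSMUSG00000026787) spans chr2:22622205-22693874 on the plus strand, with 16 blocks of 5876 bases. Slc32a1 (ENSMUSG00000037771) is compact, with 2 blocks of 2797 bases at chr2:158610767-158615748 on the plus strand. Abat (ENSMUSG00000057880) spans chr16:8513429-8621568 on the plus strand, with 18 blocks of 7748 bases. Of the exon bases of Slc32a1, 697 (24.92%) are shared with the antisense gene Gm14205, and the library kit does not mark the strand. Gm14205 had 0 counts in all 40 libraries. Since ambiguous reads were not counted, the level of Slc32a1 per kb may be understated, while comparisons of Slc32a1 between libraries do not depend on its length.

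Upstream sequence is shown for Gad1, Gad2 and Slc32a1, from the RefSeq promoter table, of build GRCm38.p6. Each stretch is the part of the window before the RefSeq start that overlaps no exon of the gene in the count files, 5′ to 3′ on the plus strand, and for Gad1 it lies within the annotated span of the gene, between exons. The promoter set used holds no entry for Abat, which is therefore only named. Capitals mark matches to the TATA box (TATAAA), the GC box (GGGCGG) and the CCAAT box, searched on both strands. The stretches lie at chr2:70561879-70562041 for Gad1, chr2:22622077-22622204 for Gad2 and chr2:158610508-158610757 for Slc32a1.
Gad1: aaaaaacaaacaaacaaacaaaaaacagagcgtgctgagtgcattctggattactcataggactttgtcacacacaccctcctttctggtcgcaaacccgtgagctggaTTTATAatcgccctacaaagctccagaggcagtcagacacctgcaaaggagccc
Gad2: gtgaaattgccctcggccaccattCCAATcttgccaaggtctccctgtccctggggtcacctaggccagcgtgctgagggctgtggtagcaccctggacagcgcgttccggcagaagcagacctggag
Slc32a1: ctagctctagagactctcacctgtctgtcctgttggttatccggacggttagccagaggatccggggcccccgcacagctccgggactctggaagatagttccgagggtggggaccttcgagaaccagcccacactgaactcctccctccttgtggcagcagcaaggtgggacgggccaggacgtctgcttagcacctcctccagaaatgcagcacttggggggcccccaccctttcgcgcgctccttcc
The Gad1 stretch of 163 bases held 1 match to TATAAA, on the minus strand, which 7.78% of the 32851 promoters in the table hold in a stretch of that length. The Gad2 stretch of 128 bases held 1 match to CCAAT, a motif found in 17.2% of promoters over that length. The 250 bases of Slc32a1 held no match to the 3 motifs. GC content was 46.6% for Gad1, 62.5% for Gad2 and 62.4% for Slc32a1, against medians of 50.9%, 50.8% and 52.4% over all promoters at those lengths. The stretches of Gad1 and Gad2 end short of their RefSeq starts, at chr2:70562129 and chr2:22622327. The bases next to the start were thus not searched for these genes, while the Slc32a1 stretch reaches its start. Within the stretches searched, the 3 genes had no motif of this short list in common, which leaves the unsearched bases undecided.

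Libraries held 14259535 to 22037703 counts (median, 17143957), of which mitochondrial genes took 0.0584 to 41.9%, with the highest medians in SNF. Levels are given as cpm (counts of a gene per 1000000 counts of the library) over all genes but 390 of the mitochondrial chromosome or of rRNA and tRNA, so that 1 count was worth 0.0455 to 0.112 cpm. Gad1 had at least 1154 counts in each library, Gad2 514, Abat 1411 and Slc32a1 30. Counts of Gad1, Gad2 and Abat were thus far above the floor in each library, and the spread between pools, not depth, limited their precision. Slc32a1 was lowest in RBP4 TRAP, at 30 to 89 counts (1.49 to 4.99 cpm), where counting noise may add to the spread. As a check of the labels, Fezf2 and Slc17a7, genes of deep-layer and of glutamatergic neurons, were at 125 ± 32.6 and 552 ± 87.5 cpm (SD, n = 5) in RBP4 TRAP, against 7.67 ± 6.13 and 58.5 ± 55.0 cpm in VGAT TRAP. A pair of RBP4 libraries stood apart for the members, and the values without them are given where they are part of a comparison. In RBP4 TRAP replicate 5, the summed level of 7 astrocyte markers was 3187 cpm against 494 to 922 cpm in the other RBP4 TRAP libraries, and that of 6 oligodendrocyte-lineage markers 5290 against 347 to 872 cpm. Slc32a1 reached the level of the VGAT ST libraries in the library labelled RBP4 ST replicate 4, while there the summed level of 9 GABAergic neuron markers was 465 cpm, the lowest of the 5 RBP4 ST libraries (the others, 490 to 1169 cpm).

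**Figure D1:**
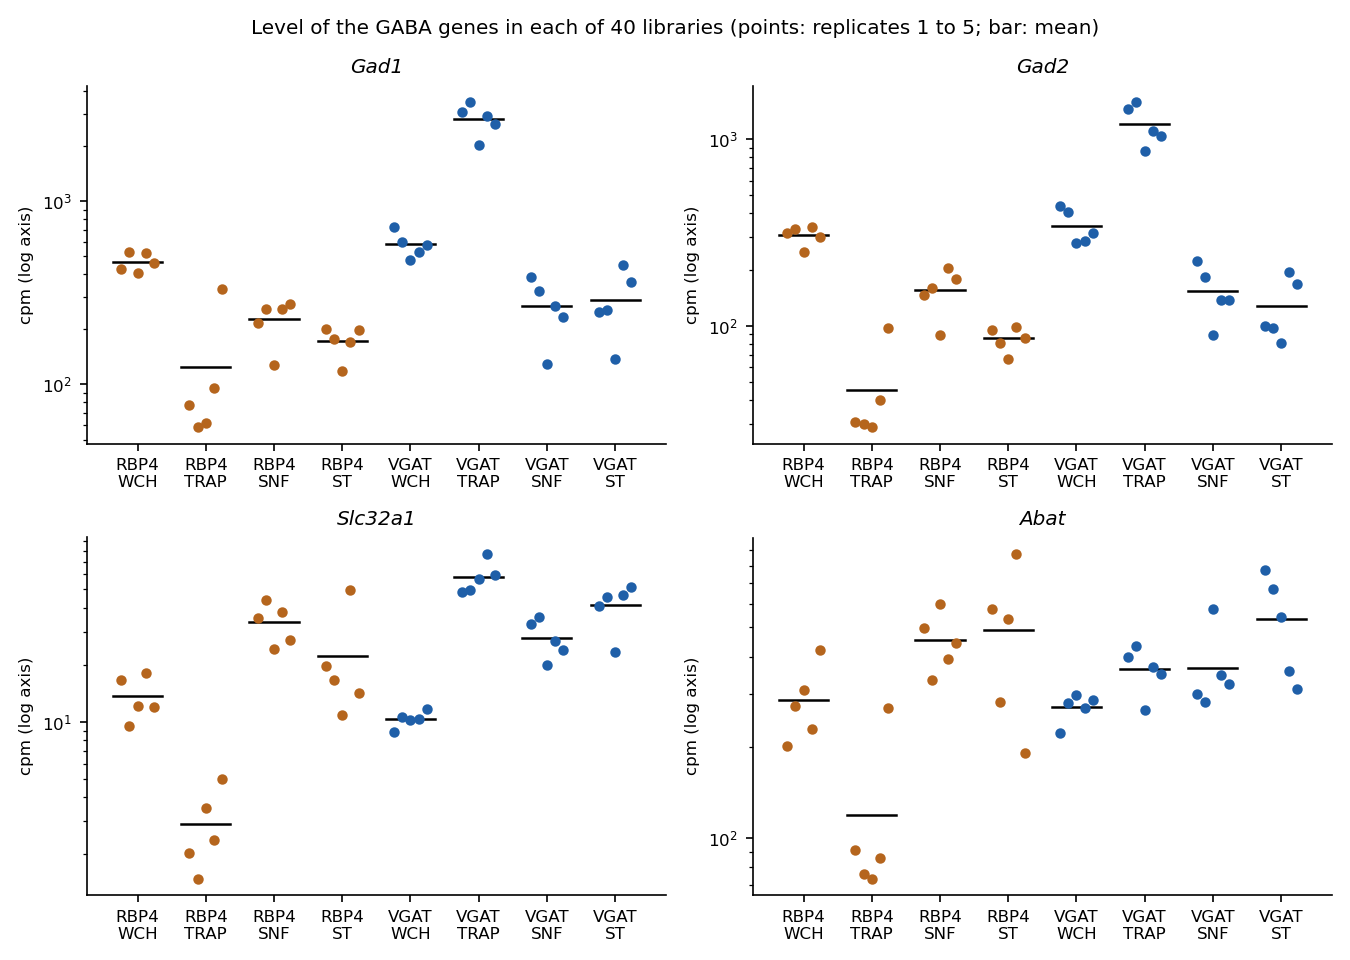
Level in cpm (log axis) of Gad1, Gad2, Slc32a1 and Abat in each of the 40 libraries, by line and fraction; points are replicates 1 to 5 in order and bars are means. VGAT TRAP (mean 2822 cpm for Gad1) stands above all other groups for Gad1 and Gad2, whereas for Slc32a1 the SNF libraries of both lines lie above all WCH libraries and below all VGAT TRAP libraries, and the RBP4 ST libraries reach from the WCH range to the VGAT TRAP range.

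TRAP against WCH asks which transcripts the marked neurons hold on ribosomes relative to the tissue. Both decarboxylases and the vesicular transporter were several-fold lower than in homogenate in ribosome-bound RNA of layer 5 neurons and several-fold higher in that of GABAergic neurons. Abat was lower in the layer 5 capture and did not pass the test in the GABAergic capture. In bulk samples such as these, fewer cells of a type and less RNA per cell cannot be told apart.

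In the RBP4 line, Gad1 was at 425, 529, 408, 519 and 459 cpm in WCH (replicates 1 to 5) and at 77.0, 58.3, 61.8, 95.01 and 331 cpm in TRAP. All TRAP libraries were below all WCH libraries, with replicate 5 far above the other TRAP libraries. The log2 fold change was -1.91 ± 0.36 (SE), with an edgeR adjusted p of 0.00028, and it was -2.68 without RBP4 TRAP replicate 5. Gad2 was at 247 to 340 cpm in WCH and at 30.6, 29.7, 28.6, 39.9 and 97.0 cpm in TRAP. It had the lowest log2 fold change of the 4 members, -2.76 ± 0.29 (edgeR adjusted p = 7.8e-07). Slc32a1 was at 16.6, 9.46, 12.2, 18.1 and 11.97 cpm in WCH and at 2.03, 1.49, 3.53, 2.37 and 4.99 cpm in TRAP, 2 ranges that did not overlap. Its log2 fold change was -2.25 ± 0.37 (edgeR adjusted p = 6.8e-05). Abat was at 202, 273, 309, 230 and 420 cpm in WCH and at 91.5, 75.8, 73.2, 85.7 and 270 cpm in TRAP, where replicate 5 lay within the range of WCH. It fell by 1.27 on the log2 scale (SE 0.37, edgeR adjusted p = 0.0093), a call that was lost without pool 3 (-1.11, edgeR adjusted p = 0.0586). Without RBP4 TRAP replicate 5, Gad2 was at -3.25, Slc32a1 at -2.54 and Abat at -1.82, and all 4 members still passed. Thus 4 of 4 members were lower, against 31.5% of the 17043 genes tested (8.37% were higher). The median log2 fold change of all genes was -0.34, and with TMM factors, under which it was -0.05, the split of calls was 3296 higher and 3815 lower instead of 1427 and 5372. The members were called lower under both scalings. In the same comparison 7 of 9 GABAergic and 8 of 8 striatal projection neuron markers were lower, and so were 6 of 7 astrocyte and 5 of 6 oligodendrocyte-lineage markers. What part these cells have in the fall of the members was not tested.

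In the VGAT line, Gad1 was at 723, 597, 480, 530 and 579 cpm in WCH and at 3055, 3470, 2016, 2923 and 2646 cpm in TRAP. The groups were far apart, and the log2 fold change was 2.28 ± 0.28 (edgeR adjusted p = 5.5e-07). Gad2 was at 438, 406, 279, 284 and 313 cpm in WCH and at 1454, 1576, 861, 1109 and 1039 cpm in TRAP. It rose by 1.81 on the log2 scale (SE 0.26, edgeR adjusted p = 3.8e-06). Slc32a1 was at 8.81, 10.6, 10.2, 10.3 and 11.6 cpm in WCH and at 48.4, 49.7, 56.8, 77.2 and 59.8 cpm in TRAP. Its rise of 2.50 on the log2 scale (SE 0.20, edgeR adjusted p = 3.1e-09) had the smallest error of the 4. Abat was at 223, 281, 298, 270 and 286 cpm in WCH and at 400, 434, 266, 370 and 350 cpm in TRAP, where replicate 3 lay within the range of WCH. Its log2 fold change of 0.42 ± 0.22 did not pass the test (edgeR adjusted p = 0.10), and it passed with TMM factors (0.68, adjusted p = 0.0217) and without pool 3 (0.55, adjusted p = 0.0326). VGAT TRAP replicate 3 had the highest summed levels of astrocyte (1742 cpm) and oligodendrocyte-lineage markers (2246 cpm) of the VGAT TRAP libraries, and the lowest levels of Gad1, Gad2 and Abat. Thus 3 of 4 members were higher, against 21.0% of the 16990 genes tested (41.8% were lower). With TMM factors the split of calls was 4987 higher and 5530 lower instead of 3561 and 7106. In the same capture 8 of 9 GABAergic and 8 of 8 striatal projection neuron markers rose. The shares of cortical and striatal neurons in the TRAP values of the members cannot be told apart.

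SNF against WCH asks which transcripts are held by the fraction of pinched-off processes, whatever cell they come from. The members split here, and in the same way in both lines. The mRNAs of both decarboxylases were lower in SNF than in WCH and that of the vesicular transporter was higher. The 9 GABAergic neuron markers split too, with 4 higher and 3 lower in the RBP4 line and 4 higher and 5 lower in the VGAT line. Since both fractions hold RNA of all cells of the tissue, the lines are 2 separate sets of pools for this comparison. Yet libraries of equal replicate number deviated from their group means alike across the lines. The mean correlation was 0.212 in WCH and 0.229 in SNF, against -0.0509 and -0.0432 for different numbers. SNF replicate 3 had 40.2% (RBP4) and 41.9% (VGAT) mitochondrial counts and the lowest Gad1 of its group. The lines are thus not fully independent repeats, and the cause was not tested.

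In RBP4 SNF, Gad1 was at 216, 260, 128, 257 and 274 cpm and Gad2 at 146, 159, 89.8, 204 and 179 cpm, all below the 5 WCH libraries of the line. Gad1 fell by 1.04 on the log2 scale (SE 0.35, edgeR adjusted p = 0.018) and Gad2 by 0.98 (SE 0.28, edgeR adjusted p = 0.0061). Slc32a1 was at 35.4, 44.2, 24.1, 37.8 and 27.1 cpm, all above the 5 WCH libraries. It rose by 1.30 on the log2 scale (SE 0.35, edgeR adjusted p = 0.0040). Abat was at 497, 334, 598, 392 and 445 cpm, higher than WCH in each of the 5 pools, but its log2 fold change of 0.66 ± 0.37 did not pass (edgeR adjusted p = 0.14). Without pool 5 Abat passed (0.84, adjusted p = 0.0113). Higher calls made up 13.4% of genes tested and lower calls 36.1%, against 1 and 2 of the 4 members.

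In VGAT SNF, Gad1 was at 388, 322, 129, 267 and 235 cpm and Gad2 at 222, 182, 89.6, 138 and 138 cpm, again with no overlap with WCH. Gad1 fell by 1.12 on the log2 scale (SE 0.27, edgeR adjusted p = 0.00095) and Gad2 by 1.16 (SE 0.25, edgeR adjusted p = 0.00040). Slc32a1 was at 32.7, 35.7, 19.9, 26.8 and 23.9 cpm, above all WCH libraries, and it rose by 1.43 on the log2 scale (SE 0.19, edgeR adjusted p = 2.1e-06). Abat was at 300, 282, 576, 346 and 324 cpm, above WCH in 5 of 5 pools. Its log2 fold change was 0.43 ± 0.22 (edgeR adjusted p = 0.097). Of all genes tested, 19.3% were higher and 45.2% lower.

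The median log2 fold change of all genes in SNF was -0.50 (RBP4) and -0.52 (VGAT), and it was -0.17 in both with TMM factors. Relative to the median of all genes, Gad1 and Gad2 were lower by 0.54 and 0.48 in the RBP4 line, and Slc32a1 was higher by 1.80. With TMM factors Gad1 of the RBP4 line no longer passed (-0.71, adjusted p = 0.0912) and Abat passed in both lines (1.01, adjusted p = 0.0341 for RBP4 and 0.80, adjusted p = 0.00978 for VGAT). With DESeq2 size factors neither decarboxylase of the RBP4 line passed, with Gad1 at -0.62 (adjusted p = 0.153) and Gad2 at -0.55 (adjusted p = 0.0942), and with DESeq2 itself the adjusted p were 0.127 and 0.0785. Both passed as lower in the VGAT line under each scaling. Gad1 of the RBP4 line also no longer passed without pool 1 (-1.06, adjusted p = 0.0552) or pool 4 (-1.05, adjusted p = 0.0599). The split of calls with TMM factors was 3284 higher and 3048 lower for RBP4, instead of 2286 and 6161. For VGAT it was 4187 and 4747 instead of 3283 and 7680. Slc32a1 passed as higher in both lines under each scaling. All 7 astrocyte markers rose in SNF in both lines, and their summed level was 12935 to 34710 cpm in RBP4 SNF and 11318 to 33658 cpm in VGAT SNF, against 3632 to 8046 cpm in WCH. Their part in the values of Abat was not tested.

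**Figure D2:**
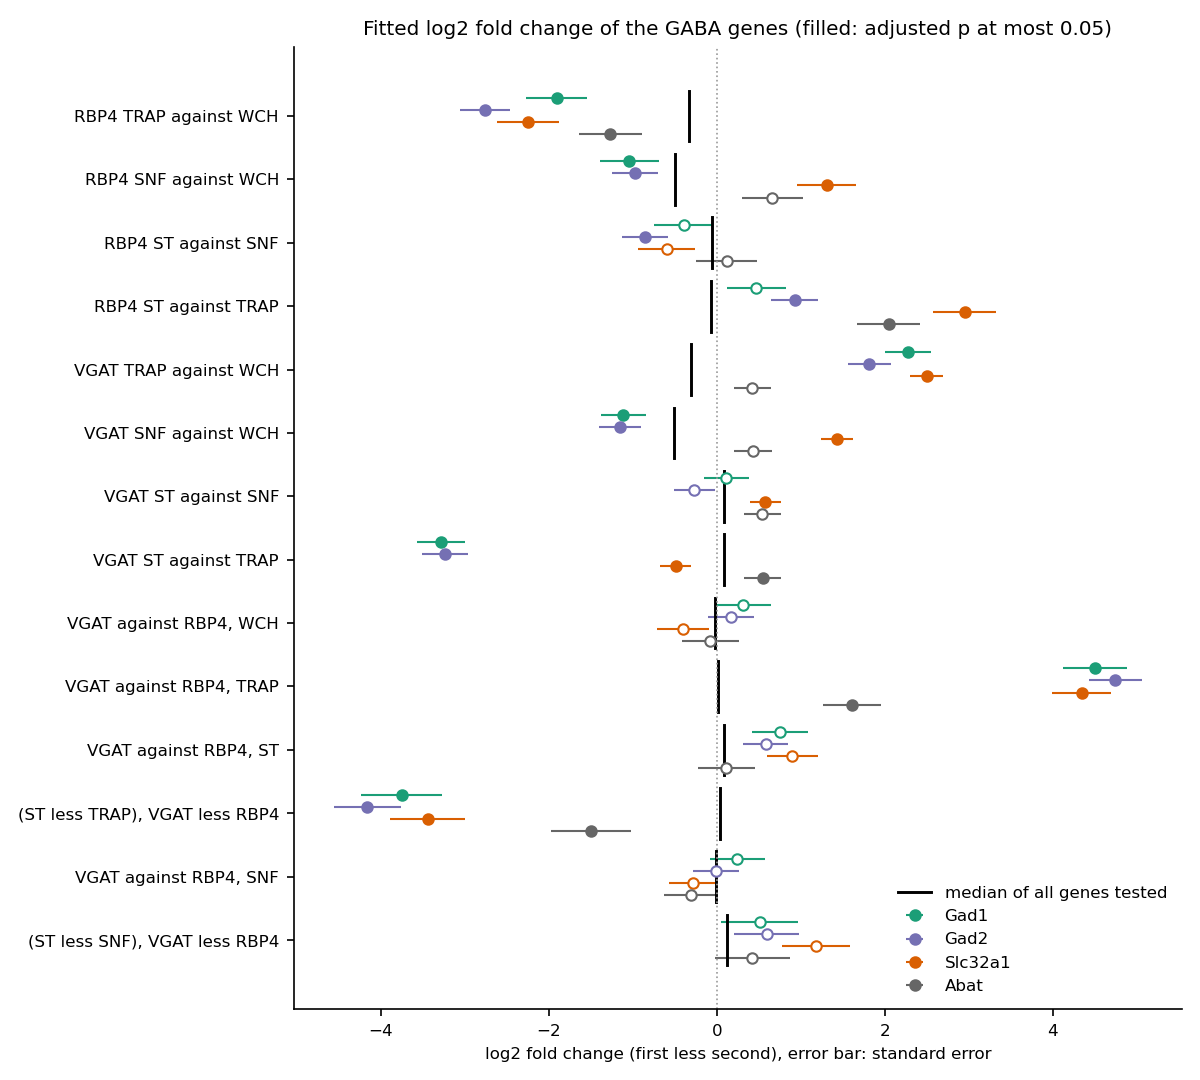
Fitted log2 fold change (horizontal axis; error bar, standard error) of the 4 genes in 14 comparisons, filled where the edgeR adjusted p was at most 0.05; the vertical black bar is the median of all genes tested. Slc32a1 lies to the right of Gad1 and Gad2 in SNF against WCH of both lines (1.30 and 1.43 against values of -0.98 to -1.16), and the 4 members spread widely in ST against TRAP.

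ST against SNF asks what the capture step adds within the fraction. By design these are transcripts on tagged ribosomes of the marked neurons, but how far RNA of other cells stayed in ST was not tested. In the VGAT line, Slc32a1 was higher in ST than in SNF in 5 of 5 pools. In the RBP4 line, Gad2 was lower in 5 of 5 pools.

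In VGAT ST, Slc32a1 was at 40.9, 45.5, 23.3, 46.6 and 51.3 cpm, and 4 of these 5 values lay above all VGAT SNF libraries. It rose by 0.58 on the log2 scale (SE 0.19, edgeR adjusted p = 0.023). The call was lost with TMM factors (0.45, adjusted p = 0.0609), without pool 4 (0.52, adjusted p = 0.0920) and without pool 5 (0.44, adjusted p = 0.156). Gad1 was at 248, 254, 137, 450 and 362 cpm and Gad2 at 100.3, 96.8, 81.0, 195 and 167 cpm in ST. Their ranges overlapped those of SNF, with log2 fold changes of 0.11 ± 0.26 and -0.27 ± 0.25 (edgeR adjusted p = 0.80 and 0.47). Abat was at 775, 672, 540, 357 and 312 cpm, with a log2 fold change of 0.54 ± 0.22 (edgeR adjusted p = 0.077), and it passed without pool 3 (0.76, adjusted p = 0.0124). Of the genes tested, 16.3% were higher and 11.2% lower, and with TMM factors the split of calls was 1987 higher and 2480 lower instead of 2771 and 1905. In the same comparison 1 of 9 GABAergic markers was higher and 1 lower. Their summed ST levels were highest in pools 4 and 5 (3809 and 4982 cpm, against 964 to 2488.5 cpm). Of 7 astrocyte markers 1 was higher and 1 lower, and of 6 oligodendrocyte-lineage markers 2 were higher and 1 lower. How far these cells enter the values of the members was not tested.

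In RBP4 ST, Slc32a1 was at 19.7, 16.7, 10.9, 49.9 and 14.2 cpm. Replicate 4 was above all RBP4 SNF libraries and the other 4 were below all of them. The log2 fold change was -0.60 ± 0.34 (edgeR adjusted p = 0.28), and without the library labelled RBP4 ST replicate 4 it was -1.14 (adjusted p = 0.0173). Gad2 was at 95.5, 81.2, 66.4, 98.8 and 86.5 cpm and fell by 0.86 on the log2 scale (SE 0.28, edgeR adjusted p = 0.046). That call was lost without pool 1 (-0.92, adjusted p = 0.125), pool 2 (-0.83, 0.114), pool 3 (-0.92, 0.0542) or pool 4 (-0.80, 0.176), and without RBP4 ST replicate 4 alone (-0.92, 0.0640). Gad1 was at 201, 177, 118, 171 and 198 cpm, a range that overlapped that of SNF, with a log2 fold change of -0.39 ± 0.35 (edgeR adjusted p = 0.52). Abat was at 576, 282, 533, 878 and 191 cpm, a range of more than 4-fold within 1 group, with a log2 fold change of 0.12 ± 0.36 (edgeR adjusted p = 0.88). Without the library labelled RBP4 ST replicate 4, Gad1 was at -0.39 and Abat at -0.20, and neither passed. Of the genes tested, 5.64% were higher and 5.46% lower. In the same comparison 0 of 8 glutamatergic projection neuron markers were higher and 1 was lower, and 0 of 9 GABAergic markers were higher and 5 lower. Of 7 astrocyte markers 0 were higher and 0 lower, and of 6 oligodendrocyte-lineage markers 2 were higher and 0 lower. How far unmarked cells enter these values of the members was not tested.

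The study's list of local translation candidates rests on transcripts that are higher in SNF than in WCH and higher again in ST than in SNF. The p threshold of this rule was inferred from the study's methods and tables. With both steps taken at an unadjusted p under 0.05, 71 (RBP4) and 220 (VGAT) genes met it, fewer than the study lists for each line. Slc32a1 met this rule in the VGAT line, as did 1.29% of genes tested, and no member met it in the RBP4 line (0.417%). Slc32a1 did not meet it without VGAT pool 5, and with no filter on low counts Abat met it too in the VGAT line. When both steps had to pass after adjustment, Slc32a1 met it, but not with TMM factors, DESeq2 size factors, DESeq2 or all 40 libraries, nor without VGAT pool 4 or 5. The opposite, somatic pattern was taken as a rise from WCH to TRAP and a fall from WCH to SNF. Gad1 and Gad2 met it in the VGAT line, as did 13.2% of genes tested, and no member met it in the RBP4 line (5.94%). Gad1 and Gad2 also met it without each VGAT pool in turn.

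ST against TRAP sets ribosome-bound RNA of the fraction beside that of the homogenate, and here the members differed most from each other. In the VGAT line Gad1 and Gad2 were 9.72-fold and 9.43-fold lower in ST, Slc32a1 was 1.41-fold lower and Abat was 1.46-fold higher. In the RBP4 line no member fell.

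For VGAT, Gad1 and Gad2 fell together, with log2 fold changes of -3.28 ± 0.29 for Gad1 (edgeR adjusted p = 2.0e-09) and -3.24 ± 0.27 for Gad2 (edgeR adjusted p = 1.0e-09), and the groups of each did not overlap. That of Slc32a1 was -0.49 ± 0.18 (edgeR adjusted p = 0.021), lower in 5 of 5 pools with ranges that overlapped, and without pool 4 it did not pass (-0.41, adjusted p = 0.0925). Abat passed with 0.55 ± 0.22 (edgeR adjusted p = 0.033) but was higher in only 3 of 5 pools. It did not pass without pool 1 (0.41, adjusted p = 0.144), pool 2 (0.52, 0.0833) or pool 3 (0.45, 0.0695). Of the genes tested, 34.0% were lower and 37.5% higher. In the same comparison 8 of 9 GABAergic markers fell, with summed levels of 8321 to 10125 cpm in TRAP and 964 to 4982 cpm in ST, and 8 of 8 striatal markers fell (3570 to 5389 against 870 to 2953 cpm). All 7 astrocyte markers rose (404 to 1742 against 8498 to 23092 cpm), as did all 6 oligodendrocyte-lineage markers (381 to 2246 against 31913 to 53984 cpm). Of 8 glutamatergic projection neuron markers, 6 rose and 1 fell. The part of these cells in the ST values of the members was not tested.

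In the RBP4 line Slc32a1 was 7.74-fold higher in ST, with a log2 fold change of 2.95 ± 0.38 (edgeR adjusted p = 1.3e-06) and no overlap. Without pool 4, which holds the ST library at 49.9 cpm, it was 2.35. Abat rose by 2.04 (SE 0.38, edgeR adjusted p = 9.2e-05) and Gad2 by 0.92 (SE 0.28, edgeR adjusted p = 0.0070) on the log2 scale, each in 4 of 5 pools, the exception being pool 5. Without pool 5 Abat was at 2.80, and without pool 1 Gad2 did not pass (0.77, adjusted p = 0.0610). Gad1 was at 0.47 ± 0.35 (edgeR adjusted p = 0.26), and it passed with the pool as a replicate block (0.69, adjusted p = 0.0452) and without RBP4 TRAP replicate 5 (1.24, adjusted p = 4.9e-05). Without that library Gad2 was at 1.41, Slc32a1 at 3.24 and Abat at 2.59, and without RBP4 ST replicate 4 Gad1 was at 0.47, Gad2 at 0.87, Slc32a1 at 2.42 and Abat at 1.73, with the calls as in the fit of all libraries. Of the genes tested, 26.0% were higher and 29.1% lower. Markers of other cells were also higher in ST of this line. Of 7 astrocyte markers 7 rose, with summed levels of 5246 to 25619 cpm in ST against 494 to 3187 cpm in TRAP. Of 6 oligodendrocyte-lineage markers 6 rose (31305 to 43865 cpm in ST against 347 to 5290 cpm in TRAP). Also, 6 of 9 GABAergic markers and 6 of 8 striatal markers rose. The part of unmarked cells in the RBP4 ST values of the members was not tested.

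**Figure D3:**
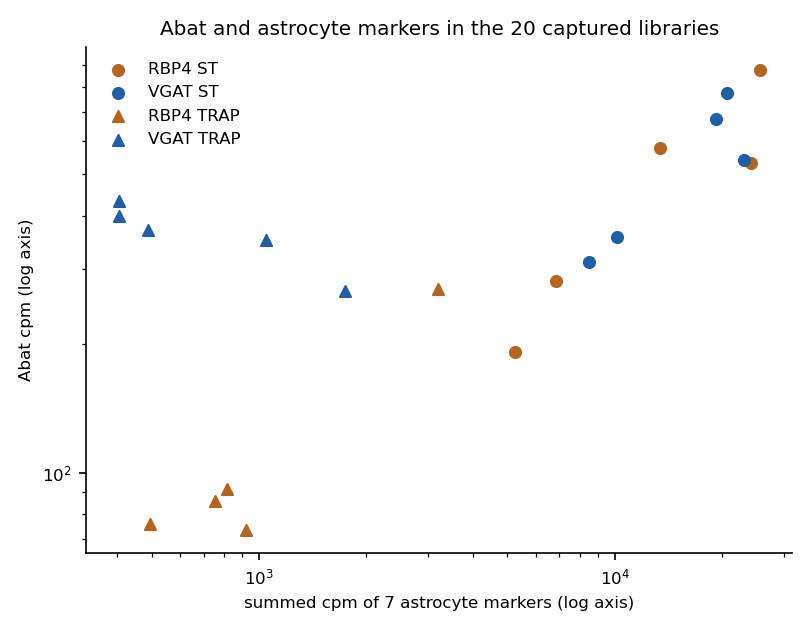
Abat (cpm, log axis) against the summed level of 7 astrocyte markers (cpm, log axis) in the 20 captured libraries, by line and fraction. Among ST libraries of both lines, those with a marker sum of 5246 to 10145 cpm held Abat at 191 to 357 cpm and those of 13454 to 25619 cpm at 533 to 878 cpm, while in VGAT TRAP Abat was at 266 to 434 cpm with a marker sum of at most 1742 cpm.

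Abat was lowest in the ST libraries with the lowest astrocyte marker sums. In RBP4 ST the 5 marker sums were 13454, 6859.5, 24127, 25619 and 5246 cpm (replicates 1 to 5), and Abat was lowest in replicates 2 and 5 and highest in replicate 4. In VGAT ST they were 20669, 19325, 23092, 10145 and 8498 cpm, and Abat was lowest in replicates 4 and 5. In VGAT TRAP, where 5 astrocyte sums lay between 404 and 1742 cpm, Abat was lowest in the library with the highest sum. The part of astrocytes in the ST values of Abat was not tested.

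The difference of ST less TRAP between the lines (VGAT less RBP4) was tested as an interaction, and all 4 members passed. It was -3.75 ± 0.48 on the log2 scale for Gad1 (edgeR adjusted p = 2.3e-06), -4.16 ± 0.40 for Gad2 (edgeR adjusted p = 1.3e-08), -3.45 ± 0.45 for Slc32a1 (edgeR adjusted p = 2.5e-06) and -1.50 ± 0.48 for Abat (edgeR adjusted p = 0.040). Lower values made up 5.02% of genes tested and higher values 5.79%. By the same term 9 of 9 GABAergic (median -4.06) and 8 of 8 striatal projection neuron markers (median -3.10) were lower. Of 8 glutamatergic projection neuron markers, 7 were higher and 1 lower. The term was thus not particular to the members. For Slc32a1 the term came mainly from the rise in the RBP4 line (2.95) and for Gad1 mainly from the fall in the VGAT line (-3.28). Without RBP4 TRAP replicate 5 it was -4.52 for Gad1, -4.65 for Gad2, -3.73 for Slc32a1 and -2.05 for Abat, and all 4 passed. Without RBP4 ST replicate 4 it was -3.76 for Gad1, -4.11 for Gad2 and -2.91 for Slc32a1, and these 3 passed. Without RBP4 pool 4 it was -2.85 for Slc32a1 and without RBP4 pool 5 it was -2.25 for Abat. The term of Abat did not pass without RBP4 pool 1 (-1.36, adjusted p = 0.110), 3 (-1.34, 0.107) or 4 (-1.09, 0.164), without RBP4 ST replicate 4 (-1.18, 0.1005), or without VGAT pool 2 (-1.53, 0.0789), 4 (-1.38, 0.115) or 5 (-1.37, 0.108).

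Between the lines, no member passed the test in the homogenates or in the synaptoneurosome fraction before capture, and nearly no other gene did. After capture from the homogenate the lines were 20-fold or more apart for Gad1, Gad2 and Slc32a1. After capture from the fraction they were less than 2-fold apart.

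In WCH the log2 differences (VGAT less RBP4) were 0.31 ± 0.33 for Gad1, 0.17 ± 0.27 for Gad2, -0.40 ± 0.31 for Slc32a1 and -0.08 ± 0.34 for Abat. None passed by edgeR (adjusted p above 0.99 for each), and 0.0118% of the 16898 genes tested did in either direction. Slc32a1 spanned 8.81 to 11.6 cpm in VGAT WCH and 9.46 to 18.1 cpm in RBP4 WCH. Whether the Cre cassette at the Slc32a1 locus of the VGAT line changes the reads counted for the gene was not tested. In SNF the differences were 0.24 ± 0.33, -0.01 ± 0.27, -0.28 ± 0.29 and -0.31 ± 0.32 in the same order, none passed by edgeR (adjusted p above 0.99 for each), and 0.0169% of the 17728 genes tested did.

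In TRAP the differences were 4.50 ± 0.38 for Gad1 (edgeR adjusted p = 1.3e-10), 4.74 ± 0.32 for Gad2 (edgeR adjusted p = 5.7e-13), 4.34 ± 0.35 for Slc32a1 (edgeR adjusted p = 4.9e-11) and 1.61 ± 0.35 for Abat (edgeR adjusted p = 0.00058). As folds these were 22.6, 26.7, 20.3 and 3.05. The ranges did not overlap for the first 3, while Abat in RBP4 TRAP replicate 5 (270 cpm) lay just above the lowest VGAT TRAP library (266 cpm). Of the genes tested, 15.1% were higher and 12.9% lower. Without RBP4 TRAP replicate 5 the differences were 5.27 for Gad1, 5.23 for Gad2, 4.63 for Slc32a1 and 2.16 for Abat, and all 4 passed.

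In ST the differences were 0.75 ± 0.33 for Gad1, 0.58 ± 0.27 for Gad2, 0.90 ± 0.30 for Slc32a1 and 0.11 ± 0.34 for Abat. None passed (edgeR adjusted p = 0.38, 0.41, 0.24 and 0.93), and only 0.325% of genes tested did. With TMM factors the split of all calls was 36 higher and 15 lower instead of 45 and 10. At an unadjusted p under 0.05, which 11.5% of genes met, Gad1 (0.032), Gad2 (0.041) and Slc32a1 (0.0059) were higher in VGAT by edgeR. All VGAT ST libraries but replicate 3 (137 cpm) were above all RBP4 ST libraries for Gad1. Slc32a1 overlapped through the library labelled RBP4 ST replicate 4, and without it the difference was 1.43 (adjusted p = 0.00684), and without all of RBP4 pool 4 it was 1.43 (adjusted p = 0.0093). Without that library Gad1 was at 0.74, Gad2 at 0.64 and Abat at 0.43, and none passed. The GABAergic markers summed to 964 to 4982 cpm in VGAT ST and to 465 to 1169 cpm in RBP4 ST, and 4 of 9 passed as higher. The difference of ST less SNF between the lines passed for no gene by edgeR's quasi-likelihood test (0.0% of 17728), while 502 genes had an unadjusted p under 0.05, 4 passed by edgeR's likelihood ratio test and 0 by DESeq2. Slc32a1 was among the 502 (1.18 ± 0.40, unadjusted p = 0.0058; 1.71 without RBP4 ST replicate 4, adjusted p = 0.0745), and the other members were not (0.42 to 0.59).

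Within a library, the ratio of 2 members per kb of exon does not depend on how libraries are scaled. The paper states that 3′ priming biased the reads strongly towards the 3′ end, so counts need not scale with exon length. The size of a ratio is therefore not a measure of relative transcript number. Comparisons of a ratio between libraries do not depend on exon length. The ratio of Slc32a1 to Gad1 set the fractions apart in both lines. In the RBP4 line it was 0.107, 0.0488, 0.0814, 0.0955 and 0.0712 in WCH and 0.447, 0.465, 0.515, 0.402 and 0.269 in SNF. In the VGAT line it was 0.0333, 0.0486, 0.0581, 0.0533 and 0.0549 in WCH and 0.230, 0.303, 0.421, 0.274 and 0.278 in SNF. All 10 SNF libraries were above all 10 WCH libraries. The captured fractions showed the same step, from 0.0391 to 0.0770 in VGAT TRAP to 0.283 to 0.489 in VGAT ST, and from 0.0411 to 0.156 in RBP4 TRAP to 0.196 to 0.799 in RBP4 ST, with no overlap in either line. The mean log2 ratio in ST less TRAP was 2.85 for VGAT (SD of 5 differences 0.67) and 2.06 for RBP4 (SD 1.02).

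The ratio of Gad1 to Gad2 was higher after capture in both lines. It was 1.04 to 1.27 in RBP4 WCH, 1.51 to 2.63 in RBP4 TRAP, 0.971 to 1.26 in RBP4 SNF and 1.33 to 1.76 in RBP4 ST. For the VGAT line the ranges were 1.13 to 1.44, 1.62 to 2.03, 1.11 to 1.48 and 1.30 to 2.02. It was higher in TRAP than in WCH and higher in ST than in SNF in 5 of 5 pools of both lines, with an overlap of the ranges only for ST and SNF of the VGAT line. SNF and WCH overlapped in both lines. The mean log2 difference of TRAP less WCH was 0.67 (SD 0.35) in the RBP4 line and 0.47 (SD 0.09) in the VGAT line. The ratio of Abat to Gad1 was very tight in VGAT TRAP, at 0.123 to 0.130 over 5 pools, against 0.304 to 0.612 in VGAT WCH and 0.782 to 3.88 in VGAT ST.

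**Figure D4:**
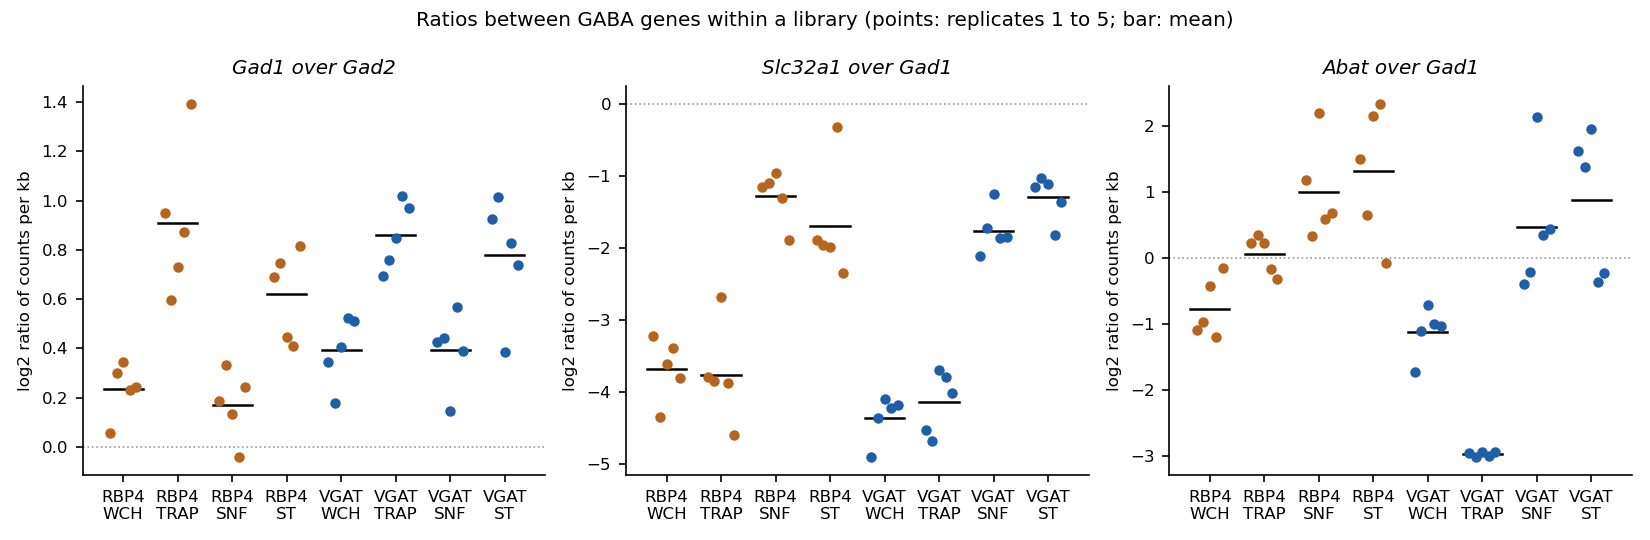
Log2 ratio of counts per kb within a library for Gad1 over Gad2, Slc32a1 over Gad1 and Abat over Gad1, by line and fraction; points are replicates 1 to 5 and bars are means. As ratios, Slc32a1 over Gad1 is at most 0.156 in WCH and TRAP and at least 0.196 in SNF and ST. By its mean in each line, Gad1 over Gad2 is higher in TRAP and ST than in WCH and SNF. For this ratio VGAT ST (1.30 to 2.02) overlaps VGAT WCH (1.13 to 1.44) and VGAT SNF (1.11 to 1.48).

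By mean level, VGAT TRAP came first for Gad1 (2822 ± 540 cpm, SD, n = 5), Gad2 (1208 ± 298 cpm) and Slc32a1 (58.4 ± 11.6 cpm), and VGAT ST for Abat (531 ± 198 cpm). RBP4 TRAP came last for each of the 4, at 125 ± 116, 45.2 ± 29.3, 2.88 ± 1.396 and 119 ± 84.6 cpm. For Gad1 and Gad2, both WCH groups followed VGAT TRAP, and of neighbouring groups in the order only VGAT TRAP and VGAT WCH, and for Gad2 also RBP4 WCH and RBP4 SNF, had ranges that did not overlap. For Slc32a1 the order went on with VGAT ST (41.5 ± 10.9 cpm), RBP4 SNF, VGAT SNF and RBP4 ST before both WCH groups, and only VGAT WCH and RBP4 TRAP did not overlap. For Abat the 4 synaptoneurosomal groups held the first 4 places and all neighbours overlapped. Given the 3′ bias of the reads, the order of members per kb of exon need not be that of transcript number. Per kb, Gad1 was highest in VGAT TRAP (369 ± 70.6 cpm per kb), followed by Gad2 (206 ± 50.7), Abat (47.0 ± 8.14) and Slc32a1 (20.9 ± 4.13). In VGAT ST the order was Abat (68.6 ± 25.6), Gad1 (38.0 ± 15.6), Gad2 (21.8 ± 8.49) and Slc32a1 (14.8 ± 3.88).

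The GABA pathway around the members was followed in a list of 24 genes. It holds the plasma membrane GABA transporters, the enzymes on either side of GABA, the supply of glutamate and glutamine, the pyridoxal phosphate enzymes and the chaperones and acyltransferase of GAD65. In RBP4 TRAP against WCH, 0 of the 23 tested were higher and 14 lower, with a median log2 fold change of -0.82 (all genes, -0.34; 8.37% higher and 31.5% lower). In VGAT TRAP against WCH, 6 of 24 were higher and 12 lower (median -0.54, all genes -0.31), near the 21.0% and 41.8% of all genes. The lines differed in TRAP for 9 of the 24, with 7 higher in VGAT and 2 lower (15.1% and 12.9% of all genes).

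Slc6a11, which encodes the astrocytic transporter GAT-3, was lower in TRAP than in WCH in both lines (-2.49 ± 0.32 and -1.98 ± 0.28) and higher in SNF (1.59 ± 0.31 and 1.73 ± 0.27), with all 4 edgeR adjusted p at most 0.00038.

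Among enzymes, Aldh5a1, which encodes succinic semialdehyde dehydrogenase and acts after Abat, was higher in VGAT than in RBP4 TRAP (1.25 ± 0.27, edgeR adjusted p = 0.00072), as was Pdxk, the pyridoxal kinase (1.52 ± 0.22, edgeR adjusted p = 2.0e-06). Slc38a1, which encodes a glutamine transporter of neurons, was higher in VGAT TRAP (1.41 ± 0.17, edgeR adjusted p = 1.4e-07). In SNF against WCH, 9 of 23 genes were higher and 5 lower in the RBP4 line (median 0.67, all genes -0.50), against 13.4% and 36.1% of all genes, and 11 of 24 were higher and 7 lower in the VGAT line (median 0.61, all genes -0.52), against 19.3% and 45.2%. Besides Slc6a11 the higher ones included Glul, the glutamine synthetase of astrocytes (1.41 ± 0.48 and 1.47 ± 0.35). Zdhhc17, an acyltransferase that acts on GAD65, was also higher (0.73 ± 0.23 and 0.90 ± 0.16). The GABA transporter genes Slc6a12 and Slc6a13 did not pass in the RBP4 line (edgeR adjusted p = 0.14 and 0.15). Between the ST libraries of both lines 0 of 24 passed by edgeR's quasi-likelihood test. Gadl1, a relative of the decarboxylases, was too low to be tested in the RBP4 line.

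**Figure D5:**
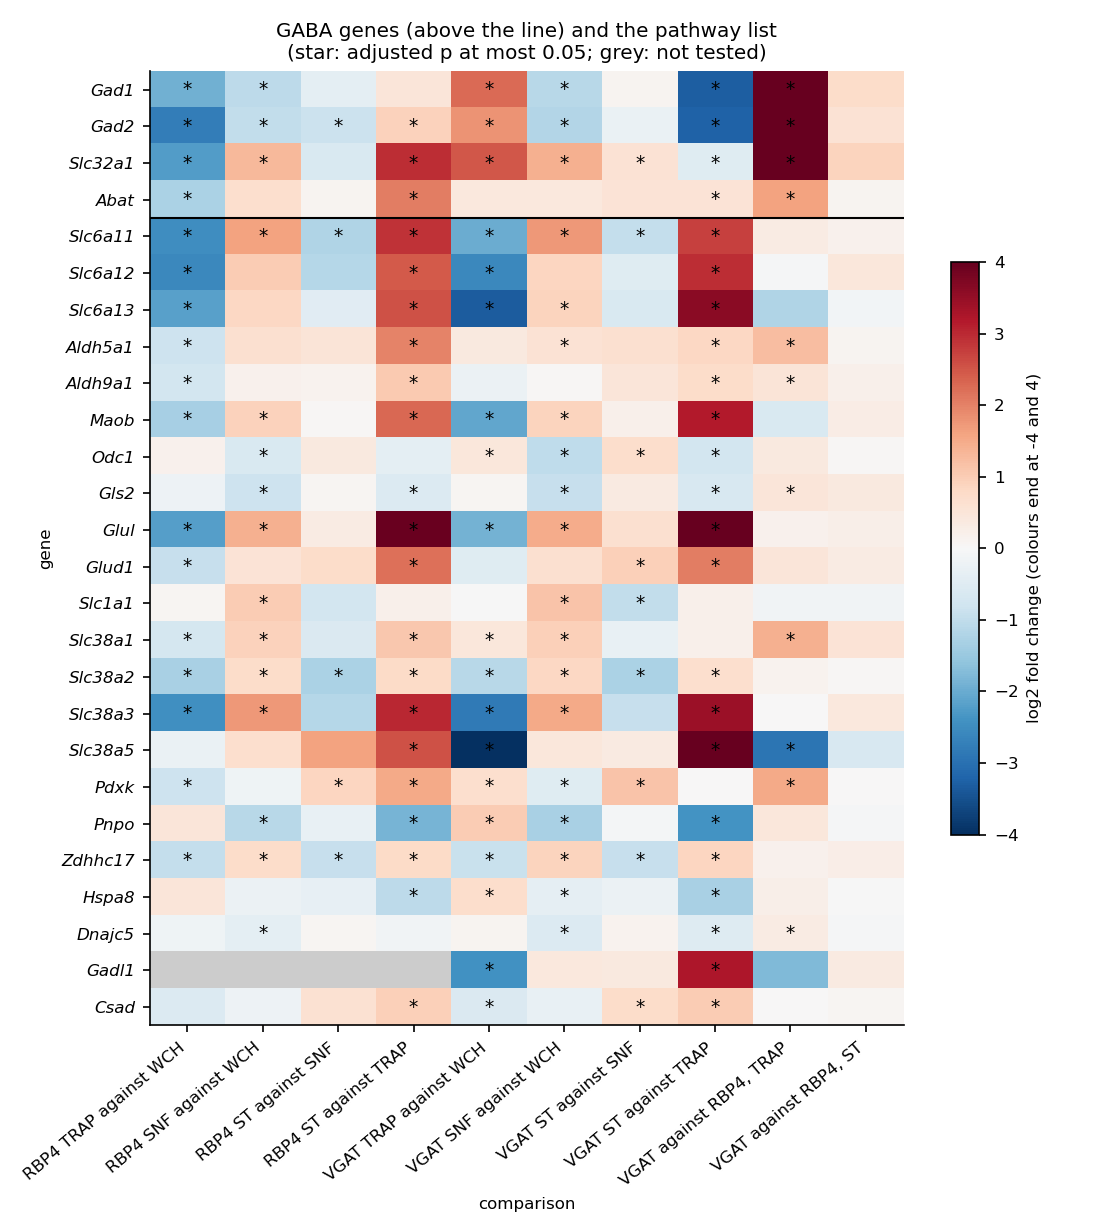
Log2 fold change (colour, ending at -4 and 4) of the 4 GABA genes and 22 of the 24 genes of the pathway list (rows) in 10 comparisons (columns); a star marks an edgeR adjusted p at most 0.05 and grey a gene not tested. In SNF against WCH, Slc32a1 and Slc6a11 are red and Gad1 and Gad2 blue in both lines.

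Over the 40 libraries, the genes whose log2(cpm + 1) ran most like each member were sought in the 13948 genes whose mean reached 1 cpm. These libraries fall into 8 groups, so that likeness mainly reflects the pattern over groups. Gad1 and Gad2 were each other's closest gene (Pearson r = 0.976). After them came Adarb2, Ubash3b, Sh3rf2 and Rgs9 for Gad1 (0.961 to 0.951) and Dusp10, Lancl3, Adarb2 and Ubash3b for Gad2 (0.966 to 0.955). For Slc32a1 they were Kcnc1, Elfn1, Sema4g, Pdyn and Tmem132c (0.955 to 0.924). Kcnc1 encodes a potassium channel of fast-spiking neurons and Pdyn the opioid precursor prodynorphin. In the list of Slc32a1, Gad2 came at rank 558 and Gad1 at rank 601 (0.563 and 0.551), and Abat came before them at rank 189 (0.723). For Abat the closest 5 included Eps8, Ptgr2, Aldh5a1 and Nacc2 (0.917 to 0.895), of which Aldh5a1 encodes the next enzyme of GABA breakdown. Gad2 and Gad1 stood at ranks 3880 and 4262 in that list.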

How the data were processed

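RNA of 4 fractions from 5 pools of forebrains per line was sequenced as unstranded, single 50-base reads. The authors aligned reads with STAR 2.0.4b and deposited, per library, gene counts of uniquely aligned, unambiguous reads (featureCounts 1.4.5). The CPM and RPKM values the authors deposited beside the counts were used only as a check of the count column. Groups came from the labels. The members and all gene lists were chosen with earlier results of these data known, and the named genes are the 4 members, the pathway genes described and the 5 genes most like each member. Some genes that this rule names are not reported here.

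From the deposited counts, 390 genes (37 mitochondrial, 353 rRNA or tRNA) were left out, library sizes were taken as the sums of the rest with no further factor, and genes that reached 0.5 cpm in 3 or more libraries were tested by edgeR 4.0.16 (limma 3.58.1, R 4.3.3) with quasi-likelihood and Benjamini-Hochberg adjustment at 0.05. Each line was fitted with its 20 libraries, the lines were compared in 30 (WCH, TRAP, ST), and SNF between lines and ST less SNF in all 40. The fit of RBP4 TRAP against WCH was run on simulated counts in which a small set of genes changed, equally up and down. That setting cannot show how the fits behave under changes as broad and uneven as those in the data. Ratios and correlations carry no p. Gene symbols (40254 of 41388) came from GENCODE M21 (GRCm38), in which 76.057% of genes had the same start and end as in the files.

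Within a line a replicate number marks 1 pool split over the 4 fractions, by the study's methods. Deviations from group means had a mean correlation of 0.219 (RBP4) and 0.257 (VGAT) for equal numbers, against -0.0549 and -0.0634 for different ones. Between the lines, which share no pool, equal numbers gave 0.212 (WCH), 0.1575 (TRAP), 0.229 (SNF) and 0.051 (ST). The correlation within a line therefore cannot by itself show a shared pool. No 2 libraries of a group agreed within counting noise (chi-square per degree of freedom at least 8.42). Depth was 14259535 to 22037703 counts. Alternatives were TMM, DESeq2 1.42.0 and its size factors, the likelihood ratio test, other filters, no genes left out, all 40 libraries, a replicate block, each pool left out, and RBP4 ST replicate 4 left out. Leaving out RBP4 TRAP replicate 5 was added after the data were seen.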

Additional observations from a re-analysis of the deposited data

Results flagged for a closer look

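In 5 of the 32 sets of 5 libraries (4 genes, 8 groups), 1 library lay far from the other 4 by Dixon's criterion, which chance meets in about 1 of 20 groups. RBP4 TRAP replicate 5 was such a library for Gad1 (331 cpm), Gad2 (97.0 cpm) and Abat (269.9 cpm). The library labelled RBP4 ST replicate 4 was one for Slc32a1 (49.9 cpm), and VGAT SNF replicate 3 for Abat (576 cpm).

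The change from TRAP to ST differed between the lines for all 4 members by the interaction term of the edgeR fit (VGAT less RBP4, log2 scale). The terms were -3.75 for Gad1, -4.16 for Gad2, -3.45 for Slc32a1 and -1.50 for Abat, with edgeR adjusted p of 2.3e-06, 1.3e-08, 2.5e-06 and 0.040. All 9 GABAergic and all 8 striatal projection neuron markers were lower by the same term.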

How the results depend on the processing

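Of 976 values of the members under alternatives, 900 kept direction and side of the threshold, 35 no longer passed, 20 newly passed and 21 changed sign. The likelihood ratio test, no filter and the stricter filter changed none, and the cause of the changes below was not tested. With TMM factors, RBP4 SNF against WCH was -0.71 for Gad1 and 1.01 for Abat, VGAT TRAP against WCH 0.68 and VGAT SNF against WCH 0.80 for Abat, VGAT ST against SNF -0.016 for Gad1 and 0.45 for Slc32a1, and SNF between lines 0.0034 for Gad2. With DESeq2 size factors and with DESeq2 itself, these were -0.62, 1.09, 0.65, 0.88, -0.054, 0.41 and 0.024, and RBP4 SNF against WCH of Gad2 (-0.55) no longer passed and ST between lines of Abat was -0.0023. With no genes left out, Gad2 in RBP4 ST against SNF was -0.66, and Abat was 0.49 in VGAT TRAP against WCH, 0.84 in VGAT ST against SNF and 0.44 in VGAT ST against TRAP. In a fit of all 40 libraries, Slc32a1 in VGAT ST against SNF (0.58) and against TRAP (-0.49) and Abat in VGAT ST against TRAP (0.55) no longer passed. The replicate block made Gad1 in RBP4 ST against TRAP pass (0.69) and changed no other call of a member.

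Over fits that left out a pool or library, the range in the RBP4 line was -1.82 to -1.11 for Abat in TRAP against WCH, -1.13 to -0.94 for Gad1 and 0.52 to 0.84 for Abat in SNF against WCH, -0.92 to -0.80 for Gad2, -1.14 to -0.39 for Slc32a1 and -0.25 to 0.32 for Abat in ST against SNF, and 0.28 to 1.24 for Gad1 and 0.77 to 1.41 for Gad2 in ST against TRAP. In the VGAT line it was 0.32 to 0.55 for Abat in TRAP against WCH, -0.10 to 0.34 for Gad1, 0.44 to 0.65 for Slc32a1 and 0.30 to 0.76 for Abat in ST against SNF, and -0.58 to -0.35 for Slc32a1 and 0.41 to 0.67 for Abat in ST against TRAP. Between lines it was -0.18 to 0.10 for Abat in WCH, 0.72 to 1.43 for Slc32a1 and -0.094 to 0.43 for Abat in ST, -0.18 to 0.13 for Gad2 in SNF and -2.25 to -1.09 for the interaction of Abat. Single reversed values were -0.20 for Abat in RBP4 ST against SNF without ST replicate 4, -0.022 for Gad1 in VGAT ST against SNF without pool 5, -0.035 and -0.064 for Abat in ST between lines without RBP4 pool 2 and VGAT pool 1, and 0.10, 0.042, 0.024 and 0.025 for Gad2 in SNF between lines without RBP4 pools 4 and 5 and VGAT pools 4 and 5.

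Counts of all genes called moved more. In RBP4 TRAP against WCH, 1427 higher became 3296 with TMM, 3300 with size factors and 3536 with DESeq2. In RBP4 SNF against WCH, 2286 higher became 3546 with size factors, 3781 with DESeq2 and 1441 with no genes left out, and 6161 lower became 3048 with TMM, 2158 with size factors and 2545 with DESeq2. In RBP4 ST against SNF, 962 higher and 931 lower became 1757 and 317 with no genes left out and 1507 and 1495 over all 40 libraries, and 1452 were lower under the block. In VGAT SNF against WCH, 7680 lower became 4747, 3784 and 3929 with TMM, size factors and DESeq2. In VGAT ST against SNF, 2771 higher became 1844 with size factors and 4726 with no genes left out, and 1905 lower became 3017 with DESeq2 and 917 with no genes left out. In ST between lines, 45 higher became 28 with size factors and 121 with the likelihood ratio test, and 10 lower became 77 with DESeq2 and 19 with the likelihood ratio test. The count lower in VGAT WCH was 1 and moved between 0 and 3, and that in VGAT SNF was 1 and became 2 with DESeq2, the likelihood ratio test, no filter and the block. Genes meeting the local translation rule went from 71 (RBP4) and 220 (VGAT) to 32 and 134 at adjusted p, 208 and 401 with TMM, 269 and 495 with size factors, 277 and 508 with DESeq2, and 140 for VGAT over all 40 libraries. Those meeting the somatic rule in the RBP4 line went from 1013 to 656 at adjusted p. By Spearman's rho, 3, 2, 2 and 2 of the 5 genes most like Gad1, Gad2, Slc32a1 and Abat were shared. Leaving out a pool or library gave 764 to 1631 genes higher in RBP4 TRAP against WCH, 462 to 1158 higher and 258 to 1172 lower in RBP4 ST against SNF, 6 to 162 higher and 1 to 33 lower in ST between lines, and 40 to 118 (RBP4) meeting the local rule. With 5 pools a group, the spread between pools and not the depth limits these values, except perhaps for Slc32a1 in RBP4 TRAP (30 to 89 counts).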
